A study of Mus musculus with 90 samples.

Results

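The regions described here are differentially methylated regions (DMRs) that lie in protein-coding genes of the mouse. The study called the DMRs by whole-genome bisulfite sequencing of mouse embryonic stem cells. It compared cells that lacked Dnmt3a and Dnmt3b and had little Dnmt1 (TKOL) with the same cells at passage 15 with Dnmt1 restored (DKO0). The DMRs were then filtered with Nanopore data, but only where enough CpGs were informative there. Some DMRs may thus have been kept without that check. Of the 1515 DMRs kept after filtering, 284 (18.7%) overlapped the body of a protein-coding gene of GENCODE vM1 by 1 bp or more, and these are called genic DMRs below. They lay in 275 coding genes of 22380, and the other 1231 DMRs lay outside coding genes. The choice used position only and no value of the binding assays.

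Binding was measured in 3 mouse embryonic stem cell lines. H3K9me3 and Trim28 were profiled by ChIP-seq, and Uhrf1 by ChIPmentation, in which Tn5 transposase cuts the chromatin on the beads. WT was the V65 line. TKOL was a clonal line that lacked catalytically active Dnmt3a and Dnmt3b and carried a hairpin RNA against Dnmt1 linked to GFP. DKO0 was derived from TKOL by Cre excision of that hairpin and sorting of GFP-negative cells, so that Dnmt1 was restored and both Dnmt3 genes stayed inactive. All cells were grown with serum and LIF on feeder layers of growth-arrested CD1 fibroblasts. The data were lists of enriched regions (peaks) of H3K9me3, Uhrf1 and Trim28, with 2 single-library lists per factor and line (18 in all) and 1 pooled list per factor for TKOL and for DKO0 (6 in all). Uhrf1 was profiled in picked clones with a FLAG tag on the endogenous gene, and the sample labels give no passage for the DKO0 cells in either assay. The DKO0 lists are named with p5 for H3K9me3 and Trim28 but with p3 for Uhrf1, and if these are passages, they differ from each other and from passage 15 of the DMRs. WT has another strain background than TKOL and DKO0, which derive from J1 cells, so genotype and background cannot be told apart in comparisons with WT. For Uhrf1 the WT and TKOL cells were also tagged and picked separately, so clone cannot be told apart from these either. The labels do not say which lists came from separate cultures, so p-values measure the spread between these lists, which may be technical.

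Methylated DNA in mouse stem cells is kept on the daughter strand by Dnmt1, which Uhrf1 brings to hemimethylated CpGs. H3K9me3 marks silent chromatin, Uhrf1 can bind it, and Trim28 is the co-repressor that KRAB zinc finger proteins bring to retrotransposons and that recruits the H3K9 methyltransferase Setdb1. Intracisternal A particles (IAPs) are mouse retrotransposons with long terminal repeats that these factors silence, and IAPEz is their youngest and most numerous group. Many copies lie in the introns of genes, where a transcribed copy can add a promoter, a splice site or an end to the transcript of the gene.

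The sequences below show what many of these introns held. The study's primers for the IAPEz gag region and its RNA-FISH probe against the IAP transcript were searched in every DMR on both strands, with up to 2 mismatches each. The capitals mark CpGs, the sites that Dnmt1 methylates.
IAPEz gag forward primer: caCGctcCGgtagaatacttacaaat
IAPEz gag reverse primer: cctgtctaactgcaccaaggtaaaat
IAP RNA-FISH probe: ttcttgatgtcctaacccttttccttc

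For the longest genic DMRs that had a peak in all 18 single lists and sites of both primers, the 300 bases with most CpGs are shown, read along the IAPEz strand (build mm9). In Hlcs (holocarboxylase synthetase) the window was chr16:94497566-94497865 on the plus strand and held 22 CpGs. In Gabrb1 (a GABA receptor subunit) it was chr5:72466623-72466922 on the minus strand with 20 CpGs, and in Opcml (an opioid-binding cell adhesion protein) it was chr9:27783126-27783425 on the plus strand with 23 CpGs. As a contrast chosen after the values were seen, the CpG-richest 300 bases of a DMR with no peak in any of the 24 lists are shown from an intron of Nrxn3 (the presynaptic adhesion protein neurexin 3), at chr12:90828267-90828566 on the plus strand with 12 CpGs.
Hlcs DMR window: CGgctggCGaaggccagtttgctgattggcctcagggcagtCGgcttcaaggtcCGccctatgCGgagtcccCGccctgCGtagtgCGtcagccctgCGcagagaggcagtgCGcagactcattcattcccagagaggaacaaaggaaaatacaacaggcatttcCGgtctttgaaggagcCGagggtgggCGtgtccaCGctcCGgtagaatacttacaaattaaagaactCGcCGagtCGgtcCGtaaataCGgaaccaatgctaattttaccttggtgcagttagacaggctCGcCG
Gabrb1 DMR window: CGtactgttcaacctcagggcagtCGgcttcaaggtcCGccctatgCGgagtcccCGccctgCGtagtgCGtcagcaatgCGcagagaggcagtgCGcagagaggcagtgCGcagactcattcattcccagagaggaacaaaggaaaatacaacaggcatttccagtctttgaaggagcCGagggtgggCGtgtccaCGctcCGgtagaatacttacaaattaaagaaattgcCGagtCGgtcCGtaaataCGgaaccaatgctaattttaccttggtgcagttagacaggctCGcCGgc
Opcml DMR window: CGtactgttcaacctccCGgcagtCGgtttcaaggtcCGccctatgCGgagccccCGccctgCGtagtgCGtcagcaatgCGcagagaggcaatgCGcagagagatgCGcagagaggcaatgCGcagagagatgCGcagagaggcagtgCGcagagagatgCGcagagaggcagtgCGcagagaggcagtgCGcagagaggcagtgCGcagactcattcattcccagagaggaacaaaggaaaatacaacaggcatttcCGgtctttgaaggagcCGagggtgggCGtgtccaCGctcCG
Nrxn3 DMR window: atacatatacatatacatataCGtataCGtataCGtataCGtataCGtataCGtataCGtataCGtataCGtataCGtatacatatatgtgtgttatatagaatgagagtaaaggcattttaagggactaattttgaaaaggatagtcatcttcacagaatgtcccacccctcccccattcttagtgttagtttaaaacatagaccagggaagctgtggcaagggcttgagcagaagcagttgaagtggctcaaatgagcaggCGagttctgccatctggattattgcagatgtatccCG

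The Hlcs and Gabrb1 windows hold the whole gag amplicon, which was 96 bases long in all 3 genes. The Nrxn3 window holds most of its CpGs in a run of alternating purines and pyrimidines and no gag site. Hlcs is transcribed from the minus strand and Gabrb1 from the plus strand, so IAPEz lies antisense to both genes. Opcml is transcribed from the plus strand, and its IAPEz copy lies in the sense direction.

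The genic DMRs were mostly intronic. Of the 284, 236 (83.1%, 95% Wilson interval 78.3% to 87.0%) overlapped introns only, 43 (15.1%) overlapped coding sequence, and 5 (1.76%) touched other exon sequence. Exons made up 3.89% of the bases of genic DMRs, against 7.79% of all autosomal coding gene bodies. Coding gene bodies made up 38.4% of autosomal sequence but 18.2% of DMR bases. Every chromosome from 1 to 19 had between 4 and 24 genic DMRs, and no DMR lay on X or Y.

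The host genes were long. Their median length was 167 kb (n = 275), against 15.4 kb for all coding genes. Of the genic DMRs, 271 (95.4%) lay wholly inside a gene body, 12 covered the start of a coding gene and 9 overlapped 2 coding genes. The intronic ones lay a median of 9.56 kb from the nearest exon of the host, and 22 of 236 (9.32%) were within 1 kb of an exon. The introns that held them had a median length of 45.6 kb, and 60 of the 226 that fell in 1 intron of a coding transcript (26.5%) were in intron 1. Along the gene the centres of the 271 DMRs lying inside a body were spread over the whole length, with 82 in the first part, 104 in the middle part and 85 in the last part of equal length. Only 27 of 284 (9.51%) were within 5 kb of the start of the host.

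A few memberships rest on unusual gene models. The annotated body of Fgfr2, a fibroblast growth factor receptor, spans 3009069 bp in this annotation and includes an intron of 2956986 bp, in which both of its DMRs lie. The DMR in Gm20388 lies in an intron of 4384418 bp. Counting gene bodies of every gene type raised the number of DMRs in genes from 284 to 331.

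**Figure D1:**
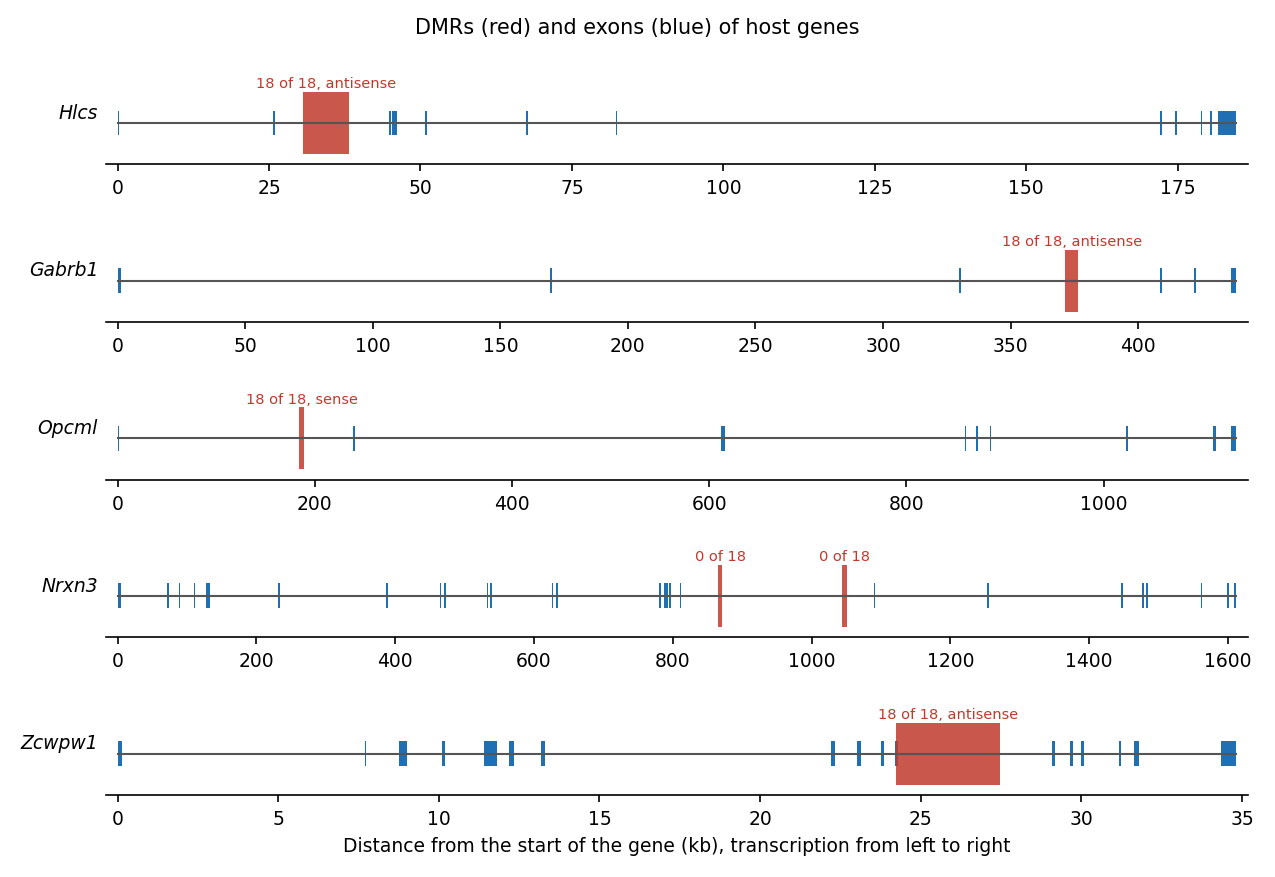
Position of DMRs in 5 host genes. Each line is a gene from its start, in kb, with transcription from left to right, exons of all transcripts in blue and DMRs in red (drawn at least 0.4% of the gene wide). Labels give how many of the 18 single lists had a peak at the DMR and the direction of its IAPEz sequence. The Hlcs, Gabrb1 and Opcml DMRs lie between exons, the Zcwpw1 DMR reaches an exon, and the 2 Nrxn3 DMRs had a peak in 0 of 18 lists.

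The median genic DMR held more CpGs per kb than the autosomes as a whole. The median length was 2000 bp (quartiles 1000 and 3500) and the median number of CpGs was 28 (quartiles 15.8 and 83.2), or 16.8 CpGs per kb (range 4.33 to 40) against 8.24 per kb over the autosomes. The other DMRs had the same median length of 2000 bp, a median of 33 CpGs and 18.7 CpGs per kb. The calling required CpGs and a methylation gain, so length and CpG number are descriptions.

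The longest genic DMR, 68000 bp with 650 CpGs (chr2:77713501-77781500), covered coding exons of Cwc22, a splicing factor, over 2759 coding bases. It was followed by 26000 bp with 452 CpGs over Gm10595 and 19250 bp with 432 CpGs in intron 4 of Vmn2r35, a vomeronasal receptor. The DMRs over Gm10600 (17000 bp, 210 CpGs) and over Gm10598 with Gm10597 (12500 bp, 237 CpGs) lay on chromosome 4 together with those over Gm10595, Gm3893, Gm7819 and Gm2163. In that stretch, Gm3893, Gm7819 and Gm2163 were gene models of the same length, 1081 bp, each wholly inside a DMR. If these models are copies of like sequence, reads could fall on any of them, so peaks there are uncertain; the likeness of their sequences was not tested.

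Some hosts held several DMRs. C130026I21Rik had 4, Pdzrn4 (a PDZ domain ubiquitin ligase) had 3, and 13 more genes had 2, among them Btbd3, Cntn5 (a neural contactin), Csmd1, Esrrg (an orphan nuclear receptor), Fam110b and Fgfr2. The 3 DMRs of Pdzrn4 (1000, 2000 and 6250 bp) all carried IAPEz sequence antisense to the gene, and had a peak in 7, 13 and 13 of the 18 single lists. The 2 DMRs in intron 14 of Nrxn3 (3500 and 3000 bp, 24 and 19 CpGs) had none.

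IAPEz sequence was common in genic DMRs. A gag site was found in 80 of 284 (28.2%): the reverse primer matched in 79, the forward primer in 60 and the probe in 42. Among the other DMRs 411 of 1231 (33.4%) had a gag site. As background, 0.197% of all 2-kb windows of the autosomes and 0.101% of those inside coding gene bodies held such a site. Since many DMRs cover only a piece of an element, words of 31 bases that were shared by at least 10 gag-bearing DMRs on the same strand were also used. Such IAPEz words made up at least 10% of the sequence in 139 of 284 genic DMRs (48.9%) and in 704 of 1231 others (57.2%). DMRs below 10% are called DMRs without IAPEz words, although some hold a smaller share. No repeat annotation was used, so diverged IAPEz copies and other IAP copies in them were not identified.

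Across the autosomes the gag sites formed 1486 loci, of which 297 (20.0%) lay in coding gene bodies. Of the loci in genes 77 (25.9%, 95% interval 21.3% to 31.2%) overlapped a DMR, against 419 of 1189 (35.2%, 32.6% to 38.0%) outside genes. The bisulfite primers of other repeats matched rarely: L1MdT in 1 genic DMR (Dpp10), major satellite in 2 (Nrxn3 and Cwc22) and MuERVL in 0 of 284, for which the Wilson upper bound is 1.33%. These families were searched with primers only, so other parts of such elements were not looked for.

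The IAPEz copies in genic DMRs lay mostly antisense to the gene. Of the 79 DMRs whose gag sites had a clear direction relative to the host, 62 were antisense and 17 were sense (78.5% antisense, 95% Wilson interval 68.2% to 86.1%). With the shared words it was 108 of 137 (78.8%, 71.3% to 84.8%). In DMRs that lay wholly in introns of 1 gene it was 97 of 122 (79.5%), with 23 of 30 in intron 1 and 71 of 87 in later introns. The words took their direction from the gag sites, so both methods are not independent. The 59 DMRs with words but no gag site gave 47 antisense (79.7%), a set that the gag count did not use. The gag loci in coding genes that overlapped no DMR were antisense in 160 of 218 cases (73.4%, 67.2% to 78.8%), so the intervals inside and outside DMRs overlap. Of the antisense loci 27.9% (22.4% to 34.2%) overlapped a DMR and of the sense loci 20.5% (12.9% to 31.2%), which also overlap.

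**Figure D2:**
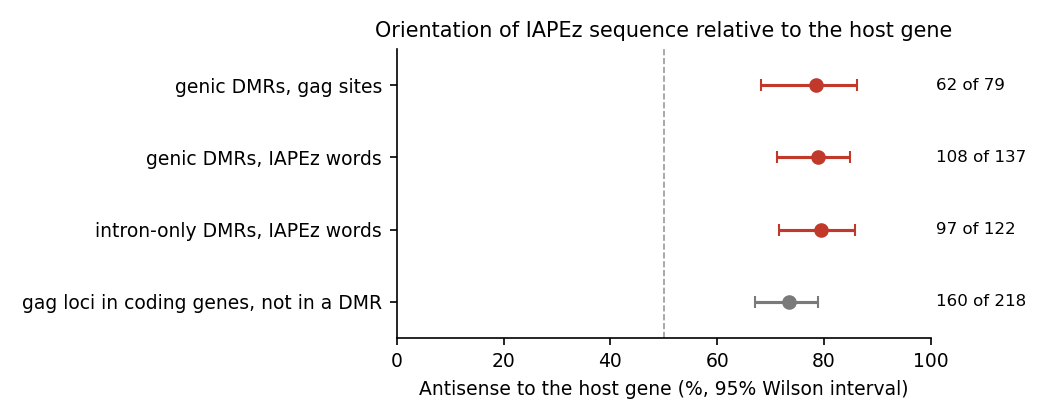
Direction of IAPEz sequence relative to the host gene. Points give the percentage antisense and bars the 95% Wilson interval, with counts at the right and a dashed line at 50%. The 3 sets of genic DMRs (red) lie at 78.5%, 78.8% and 79.5%, and gag loci in coding genes outside DMRs (grey) at 73.4%.

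Antisense hosts included Gabrb1, Hlcs, Pag1 (a membrane adaptor of Src kinases), Slc2a9 (a urate transporter), Park2 (the ubiquitin ligase parkin), Casp8 (an initiator caspase), Cd28 (a T cell co-stimulator), Nr3c2 (the mineralocorticoid receptor) and Prnd (a relative of the prion protein). Sense hosts included Opcml, Ptk2 (focal adhesion kinase), Pros1 (protein S), Pde4d (a cAMP phosphodiesterase), Kcns3 (a potassium channel subunit) and Zfp933. Most of these names were picked from the lists of hosts for their known function, after the values were seen. The sense copies lay a median of 7.73 kb from the nearest exon (n = 29) and the antisense copies 6.21 kb (n = 108), with a wide overlap of the quartiles (1.20 to 14.5 kb and 2.33 to 17.1 kb).

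H3K9me3 was found at more genic DMRs than Uhrf1 or Trim28 in TKOL and DKO0, on average over the single lists and in the pooled lists, while in WT the Uhrf1 lists had about as many or more. In the pooled lists a peak overlapped 235 of 284 genic DMRs in TKOL (82.7%, while 88.4% of all 1515 DMRs did) and 231 in DKO0 (81.3%, against 89.7%). In the single lists the number was 183 and 128 in TKOL, 199 and 148 in DKO0, and 144 and 140 in WT, against 70.4%, 50.2%, 76.2%, 55.9%, 54.8% and 53.3% of all DMRs. The spread between the 2 lists of TKOL and of DKO0 was wide, with replicate 1 above replicate 2 in both lines. The share was 54.8% ± 13.7 (SD, n = 2) in TKOL, 61.1% ± 12.7 in DKO0 and 50.0% ± 0.996 in WT. The lists of the lines overlapped, and neither DKO0 (difference 6.34 percentage points, exact permutation p = 0.667) nor WT (-4.75 points, exact permutation p = 1) was separated from TKOL. Without DKO0 replicate 1 or TKOL replicate 2 the first difference was -2.64 or -3.35 points, and without TKOL replicate 1 the second was 4.93 points. With 2 lists against 2 this two-sided test cannot go below 0.333.

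Trim28 peaks overlapped 159 genic DMRs in the pooled TKOL list (56.0%, against 65% of all DMRs) and 148 in the pooled DKO0 list (52.1%, against 57.8%). In the single lists the counts were 134 and 116 in TKOL, 117 and 111 in DKO0, and 115 and 92 in WT, against 53.7%, 42.9%, 45.1%, 43.5%, 45.4% and 36.3% of all DMRs. The share was 44.0% ± 4.48 (SD, n = 2) in TKOL, 40.1% ± 1.49 in DKO0 and 36.4% ± 5.73 in WT. Both WT lists were below both TKOL lists (-7.57 points, exact permutation p = 0.333), the nearest pair by 0.352 points. DKO0 and TKOL overlapped (-3.87 points, exact permutation p = 0.667).

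Uhrf1 peaks were found at fewer genic DMRs in TKOL and DKO0 than in WT. The pooled lists had 123 in TKOL (43.3%, against 44.5% of all DMRs) and 102 in DKO0 (35.9%, against 39.8%). The single lists had 79 and 55 in TKOL, 68 and 41 in DKO0, and 141 and 169 in WT, against 31.7%, 22.2%, 25.9%, 17.9%, 52.4% and 60.7% of all DMRs. The 2 WT lists were above all lists of the other lines, with 54.6% ± 6.97 (SD, n = 2) against 23.6% ± 5.98 in TKOL. The difference was 30.99 points (range over pairs of lists 21.8 to 40.1), with an exact permutation p of 0.333, the smallest this design allows. The WT Uhrf1 lists were also longer, with 30134 and 49156 peaks against 17444 and 14815 in TKOL, and with the same number of peaks in each list the difference was 21.7 points. It was 3.17 points when 50% of the DMR had to be covered and 5.81 with a −log10 q of at least 5. DKO0 at 19.2% ± 6.72 overlapped TKOL (-4.40 points, exact permutation p = 0.667). Adjusted over the 6 comparisons between lines by the method of Benjamini and Hochberg, these exact permutation p-values were 0.8 or 1.

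**Figure D3:**
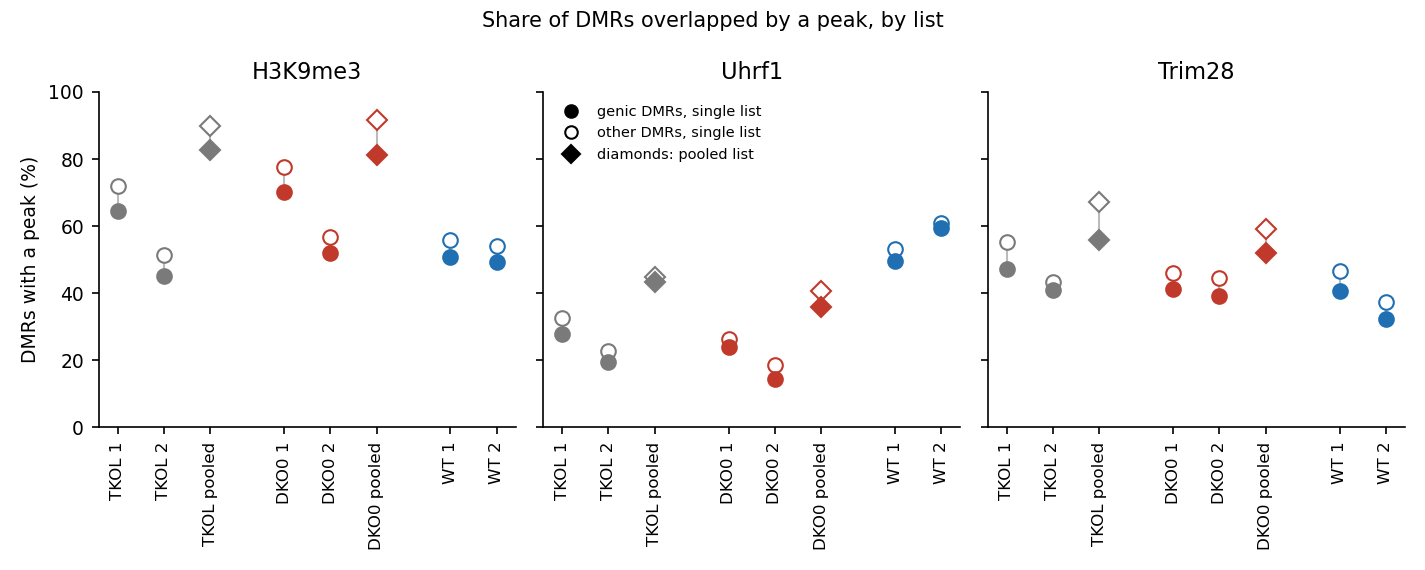
Share of DMRs with a peak, in percent, for each list of H3K9me3, Uhrf1 and Trim28. Filled symbols are genic DMRs and open symbols the other DMRs, circles are single lists and diamonds pooled lists, with grey for TKOL, red for DKO0 and blue for WT. The filled symbol is below the open one in all 24 lists, and the 2 WT lists of Uhrf1 lie above the single lists of TKOL and DKO0.

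Genic DMRs had a lower share with a peak than the other DMRs in each of the 6 single lists of each factor. The difference was -5.96 percentage points for H3K9me3 (SD 1.28, range -7.51 to -4.67), -5.28 for Trim28 (SD 1.81, -8.06 to -2.53) and -3.30 for Uhrf1 (SD 1.22, -4.84 to -1.50). Each had a two-sided exact sign-flip permutation p of 0.0312, the smallest that 6 lists can give, and 0.0469 adjusted over 9 such tests. These lists are 2 of each of 3 lines, and with the mean of each line the exact sign-flip permutation p was 0.25 for each factor, the smallest that 3 values can give. The same regions enter every list, so the test does not cover the choice of regions. The call did not hold when 50% of the DMR had to be covered for Uhrf1 (-0.338 points, exact sign-flip permutation p = 0.125) and Trim28 (-1.20 points, p = 0.0625), nor with a −log10 q of at least 5 for Uhrf1 (-0.224 points, p = 0.625).

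The comparison was also made apart in DMRs with and without IAPEz words. Among DMRs with IAPEz words, 139 genic and 704 others, the difference was 0.629 points for H3K9me3 (exact sign-flip permutation p = 0.562), 1.18 for Uhrf1 (p = 0.531) and 2.35 for Trim28 (p = 0.0312). Among DMRs without such words, 145 genic and 527 others, it was -2.36 points for H3K9me3 (exact sign-flip permutation p = 0.0938), 0.0386 for Uhrf1 (p = 1) and -1.86 for Trim28 (p = 0.0938). Among DMRs with more than 20 CpGs the differences were -0.559, -1.72 and -1.47 points for H3K9me3, Uhrf1 and Trim28 (exact sign-flip permutation p = 0.656, 0.219 and 0.25). No test compared the splits with each other, and they were added after the data had been seen.

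Genic DMRs with IAPEz words over at least 10% of their sequence had peaks more often than those below that share. With IAPEz words, H3K9me3 peaks overlapped 83.5% to 91.4% of the 139 DMRs over the 6 single lists, against 8.28% to 49.7% of the 145 without. Trim28 peaks overlapped 64.7% to 85.6% with words and 1.38% to 10.3% without, and Uhrf1 peaks overlapped 27.3% to 94.96% and 2.07% to 25.5%. In both pooled H3K9me3 lists all 139 had a peak, while 96 of the 145 without words had it in TKOL (66.2%) and 92 in DKO0 (63.4%). DMRs outside genes were split alike. H3K9me3 peaks overlapped 81.4% to 93.9% of the 704 with words and 11.2% to 55.8% of the 527 without, and in the pooled lists 76.7% and 80.8% of the latter. The sets differ in size as well: the median DMR with words had 3000 bp and 76 CpGs, and the median DMR without them 1500 bp and 17 CpGs, and the part of length in this contrast was not tested. The study reported that short bisulfite reads with several alignments were enriched at DMRs. Its ChIP-seq methods name no filter for such reads. Peaks at IAPEz copies may thus include reads from other copies, which was not tested.

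The DMRs with IAPEz words were also split by direction. Over the 6 single lists H3K9me3 peaks overlapped 89.7% to 96.6% of the 29 sense DMRs and 81.5% to 91.7% of the 108 antisense ones. Trim28 peaks overlapped 72.4% to 86.2% of sense and 62.0% to 85.2% of antisense DMRs, and Uhrf1 peaks 17.2% to 96.6% and 30.6% to 94.4%. The order of the directions was not the same in all lists. Uhrf1 had 48.3% of sense and 56.5% of antisense DMRs in TKOL replicate 1, but 96.6% and 82.4% in WT replicate 1. The pooled H3K9me3 lists had 100% of both, and no difference between directions was tested.

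**Figure D4:**
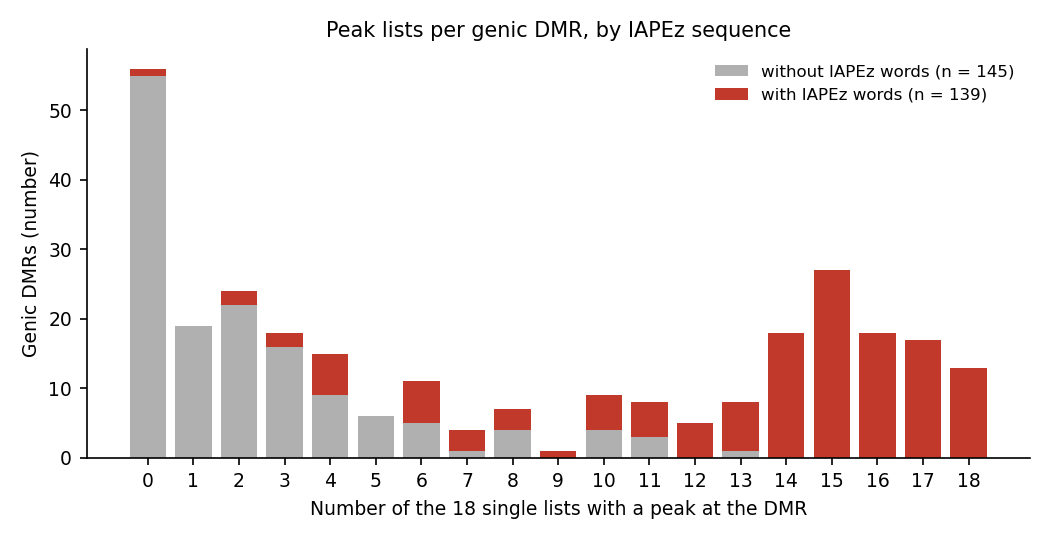
Number of genic DMRs by how many of the 18 single lists had a peak there. Red bars are the 139 DMRs with IAPEz words and grey bars the 145 without, stacked. The DMRs with words sit mostly at 14 to 18 lists and those without at 0 to 4, with 55 of the grey set and 1 of the red set at 0.

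The 2 sets can be read from the number of lists per DMR. The median genic DMR had a peak in 15 of 18 single lists with IAPEz words and in 1 without. A peak in all 18 was found at 13 of 284 genic DMRs (4.58%, against 6.66% of the other DMRs), and all 13 had IAPEz words. No peak in any of the 24 lists was found at 35 genic DMRs (12.3%) and at 65 of the others (5.28%), and all 35 were in the set without IAPEz words.

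The 13 DMRs with a peak everywhere lay in Pag1 (8000 bp, 171 CpGs), Hlcs (7500 bp, 155), Gabrb1 (5250 bp, 114), Opcml (5250 bp, 111), Gmds (5250 bp, 97), Slc2a9 (4750 bp, 103), 1700113H08Rik (4750 bp, 111), 4930534B04Rik (3500 bp, 57), Zcwpw1 (3250 bp, 80), Tbc1d4 (3250 bp, 89), Pros1 (2500 bp, 70), Slco1a6 (1500 bp, 49) and Prnd (1250 bp, 39, a DMR that also lies in Prnp, the prion protein gene). Gmds makes GDP-fucose, Zcwpw1 reads histone methylation in meiosis and Tbc1d4 controls glucose transporter traffic. By direction 10 were antisense and 3 (Opcml, 1700113H08Rik and Pros1) sense. The 4930534B04Rik and Zcwpw1 DMRs also touched coding sequence, over 60 and 78 bases.

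Peak heights are given for the DMRs in Gabrb1 and Hlcs as examples. A height here is the fold enrichment over local background that MACS2 gave for a whole broad peak, the largest at the DMR. Such a value describes the called region and not a summit. It may change with the width of the region and may include reads from other IAPEz copies, neither of which was tested. In the DMR in intron 5 of Gabrb1 (chr5:72462501-72467750) H3K9me3 reached 2.82 and 3.49 in TKOL, 2.87 and 3.08 in DKO0 and 3.47 and 3.30 in WT. Uhrf1 there reached 4.60 and 3.87 in TKOL, 5.39 and 3.73 in DKO0 and 7.05 and 5.53 in WT. Trim28 reached 3.64 and 6.28 in TKOL, 5.96 and 7.19 in DKO0 and 5.42 and 4.79 in WT. The 2 Uhrf1 values of WT were the highest of the 6 at Gabrb1. This order did not hold at every such DMR: in Opcml Uhrf1 reached 3.43 and 4.20 in WT but 4.44 and 4.35 in DKO0. For H3K9me3 and Trim28 at Gabrb1 the TKOL values overlapped those of both other lines. There WT lay above DKO0 for H3K9me3 and below it for Trim28. The pooled lists gave 19.5 for H3K9me3 and 14.6 for Trim28 in TKOL, and 16.1 and 26.5 in DKO0, and their heights are not comparable with those of single lists.

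In Hlcs (chr16:94497001-94504500, intron 2) the Uhrf1 heights were 4.19 and 4.87 in TKOL, 3.29 and 3.46 in DKO0, and 7.44 and 4.10 in WT. Both DKO0 values were below the 4 others. Its Trim28 heights were 3.58 and 4.86 in TKOL, 5.87 and 6.30 in DKO0 and 3.48 and 4.04 in WT, with DKO0 highest. H3K9me3 lay between 2.07 and 3.29 over the 6 lists. Over all genic DMRs with a peak, the median height in single lists was 2.26 to 3.32 for H3K9me3, 3.39 to 3.75 for Uhrf1 and 3.51 to 5.01 for Trim28, and over the other DMRs 2.38 to 3.42, 3.44 to 3.71 and 3.59 to 5.11.

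Of the DMRs with no peak in any list, the 5 longest lay in Gm8897, Gm4307 and Nrxn3 (each 3500 bp, 24 or 25 CpGs), in Nrxn3 again (3000 bp, 19 CpGs) and in D2hgdh, an enzyme of hydroxyglutarate breakdown (2500 bp, 30 CpGs, of which 257 bases of the DMR were coding). Foxo1, a forkhead factor of insulin signalling, also held such a DMR (1000 bp, 11 CpGs), a name chosen after the values were seen.

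DMRs that touched exons had H3K9me3 and Trim28 peaks less often than the intronic ones in each of the 6 single lists, which was not tested. Over the 6 single lists the shares of the 48 exon-touching DMRs were 31.2% to 58.3% for H3K9me3, 16.7% to 29.2% for Trim28 and 10.4% to 41.7% for Uhrf1, against 47.9% to 72.5%, 35.6% to 50.8% and 15.3% to 63.1% of the 236 intronic DMRs. IAPEz words made up at least 10% of the sequence in 13 of the 48 and in 126 of the 236. Among DMRs without words, H3K9me3 shares were 8.57% to 42.9% for the 35 exon-touching and 6.36% to 51.8% for the 110 intronic DMRs, ranges that overlap.

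The coding DMRs fell into gene models with provisional names (18) and genes with other names (25). By bases of coding sequence covered, the leading ones were Cwc22 (2759), Gm10598 with Gm10597 (2130), Gm4511 (1321), Gm3662 (1287), Tcte2 with Gm8603 (1070, coding in Gm8603), Gm3893, Gm7819 and Gm2163 (906 each), Gm4307 (867) and Gm13871 (693). Gm4511 and Gm3662 are both 1866 bp long, and IAPEz words in the sense direction made up 91.0% and 90.1% of their DMRs. Their DMRs had a peak in 13 and 11 of the 18 lists, H3K9me3 in all 6. Those over Gm4307, Gm13871 and Tcte2 with Gm8603 had none in the 18.

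Of the 25 coding DMRs in genes with other names, 21 were in the set without IAPEz words, and 11 of these 21 had no peak in any single list. They included DMRs over coding exons of Rab32 (a small GTPase, 10 CpGs, 278 coding bases), Syne2 (nesprin 2, 10 CpGs, 92 coding bases), Fndc3a (11 CpGs, 238 coding bases) and Arhgap15 (12 CpGs, 99 coding bases). Ttn, which encodes the muscle protein titin, held a DMR with 14 CpGs and 185 coding bases that had a peak in 1 list, of Uhrf1. The H3K9me3 pooled lists had a peak at 12 of the 21 in TKOL (57.1%) and 11 in DKO0 (52.4%). Of all 145 genic DMRs without IAPEz words, 66.2% and 63.4% had such a peak. The Trim28 pooled lists had a peak at 0 and 1 of the 21 (0% and 4.76%), against 16.6% and 11.0% of the 145. No peak in any single list was found at 55 of the 145 and at 147 of the 1231 DMRs outside genes (11.9%). Rab32, Syne2, Fndc3a, Arhgap15 and Ttn were named after the values were seen.

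Of the 12 DMRs over gene starts, the 6 longest covered the starts of Gm10595, Gm10600, Gm10598 with Gm10597, Gm7819, Gm3893 and Gm2163, all on chromosome 4. A DMR of 1250 bp in a, the agouti pigment signalling gene (chr2:154843251-154844500, 39 CpGs), covered the start of the overlapping model Gm14226. It touched 259 exon bases and had a peak in 1 of 18 lists.

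Peaks covered a larger share of genic DMRs than of the rest of coding gene bodies, and pooled coverage fell with distance from the DMR centre. Over the 6 single lists, H3K9me3 peaks covered 17.9% ± 6.86 (SD) of the 784 kb of genic DMRs that lie in gene bodies and 0.313% ± 0.185 of the rest of coding gene bodies. For Trim28 the values were 6.91% ± 2.13 and 0.125% ± 0.0507, and for Uhrf1 5.46% ± 6.31 and 0.191% ± 0.186. The difference was positive in 6 of 6 lists for each factor (two-sided exact sign-flip permutation p = 0.0312, adjusted 0.0469), and with the mean of each line this p was 0.25. Here too the same regions enter every list, so the test does not cover the choice of regions. The study had already reported enrichment of H3K9me3, Uhrf1 and Trim28 at its DMRs. The Uhrf1 mean rests on WT, with 9.16% and 16.8% of DMR bases against 1.12% to 2.44% in the 4 lists of TKOL and DKO0. Without WT replicate 2 the Uhrf1 difference fell from 5.26 to 3.07 points. In the pooled TKOL list H3K9me3 peaks covered 69.3% of bases within 250 bp of the centre of genic DMRs, 22.6% at 5 kb and 6.06% at 10 kb. Pooled Trim28 peaks covered 41.1%, 5.13% and 1.20% at these distances in TKOL, and pooled Uhrf1 peaks 4.03%, 0.927% and 0.319%.

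Near the starts of the host genes the shares with a peak were low and close to those of other genes. A peak within 1 kb of the start was found at 2.00% ± 1.54 (SD, 6 lists) of the 275 host genes for H3K9me3 against 1.44% ± 0.810 of 22092 other coding genes, a difference of 0.558 points (exact sign-flip permutation p = 0.156). For Uhrf1 it was 2.61% ± 1.87 against 2.21% ± 1.49 (0.394 points, exact sign-flip permutation p = 0.219) and for Trim28 1.45% ± 0.948 against 1.90% ± 1.65 (-0.448 points, p = 0.594). For Trim28 the difference was -2.82 points in TKOL replicate 1 and between -0.533 and 0.632 in the 5 other lists, and without that list the mean was 0.0272. At 16 host genes the DMR itself reached into the window, and without them the H3K9me3 difference was -0.541 points (exact sign-flip permutation p = 0.0625). Within 5 kb of the start it was 5.15 points for H3K9me3 and 1.75 for Uhrf1 (both exact sign-flip permutation p = 0.0312) and 1.56 for Trim28 (p = 0.125). However, 27 of 284 genic DMRs lay within 5 kb of the start of the host, so their own peaks can enter this window. Genes with such DMRs were not left out at 5 kb. Within 1 kb, a −log10 q of at least 5 gave differences of -0.129 for Uhrf1 and -0.171 for Trim28. Both had an exact sign-flip permutation p of 0.0312, so the direction depends on the setting.

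Few genic DMRs had a peak in both lists of DKO0 and none of TKOL, or the reverse. For H3K9me3 there was 1, in intron 4 of Tmem135 (heights 1.86 and 3.36 in DKO0), and 0 in the reverse direction, where 0.528% and 0% of all DMRs did so. The pooled TKOL list, however, had a peak there too, of 6.24. For Uhrf1 there was 1 (Wdr27, 2.86 and 2.94 in DKO0; background 0.924%) and 5 in the reverse direction (background 2.38%), the longest in Cwc22, Pla2g4e (3.58 and 3.30 in TKOL) and Macrod2 (3.48 and 3.22). For Trim28 there were 2 with a peak in DKO0 (1300010F03Rik and C130026I21Rik, background 0.528%) and 2 in TKOL (Dhrs2 and Tmc1, background 1.06%). The pooled list of the other line also had a peak of the same factor at Wdr27 (2.59), Pla2g4e (2.46), 1300010F03Rik (3.602), C130026I21Rik (4.31), Dhrs2 (4.76) and Tmc1 (6.12), and had none at Cwc22 and Macrod2. The shares of genic DMRs, 0.352% to 1.76% where above 0, were near these backgrounds.

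Among combinations, peaks of all 3 factors in the pooled lists were found at 114 genic DMRs in TKOL (40.1%; 44.1% of the others) and 94 in DKO0 (33.1%; 39.1%). H3K9me3 without the other factors was found at 69 (24.3%; 22.4% of the others) and 77 (27.1%; 31.4%), and H3K9me3 with Trim28 but not Uhrf1 at 45 (15.8%; 22.7%) and 53 (18.7%; 19.6%). Trim28 without H3K9me3 was found at 0 (0%; 0.244% of the others) and 1 (0.352%; 0.406%). Uhrf1 without H3K9me3 was found at 2 (0.704%; 0.162% of the others) and 1 (0.352%; 0%). In WT, with a peak required in both lists, Uhrf1 alone was found at 23 genic DMRs (8.10%; 8.20% of the others) and all 3 factors at 74 (26.1%; 28.1%). A DMR in intron 4 of Esrrg (2000 bp, 16 CpGs) had Uhrf1 peaks of 4.43 and 5.20 in TKOL, 5.49 in DKO0 replicate 2 and 4.59 in WT replicate 2, and no peak of H3K9me3 or Trim28 in any list.

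Gene families were represented to different extents. Of all 22238 coding gene symbols, 273 (1.23%) had a DMR. For voltage-gated and glutamate-gated ion channels by symbol it was 9 of 162 (5.56%: among them Gria4 and Grik4, and Grip1, which is a scaffold and not a channel). For cadherins and protocadherins it was 3 of 64 (4.69%: Cdh13, Cdh18 and Pcdha11), and for solute carriers 4 of 368 (1.09%: Slc24a2, Slc25a21, Slc2a9 and, among the organic anion transporters, Slco1a6). Long genes are more likely to hold a DMR, and gene length was not taken into account in these shares.

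Gene models with provisional names had a DMR in 51 of 3651 cases (1.40%), zinc finger genes with Zfp, Zscan or Zkscan symbols in 3 of 395 (0.759%: Zfp536, Zfp804a and Zfp933), and olfactory and vomeronasal receptors in 3 of 1434 (0.209%: Vmn2r22, Vmn2r35 and Vmn2r38). Of 16 genes listed as known to have variably methylated IAP copies, 2 had a DMR, Diap3 and a, and neither DMR had IAPEz words. None was found in 31 genes of the DNA methylation and heterochromatin machinery, 19 pluripotency factors, 25 germline genes or 29 imprinted genes. Within the families the DMRs differed: those of Slc2a9 and Slco1a6 had peaks in 18 of 18 lists, Cdh18 and Pcdha11 in 15, Gria4 in 12, Grik4 in 4, Cdh13 and Zfp804a in 2, Zfp536 in 1 and Grip1 in 0.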

How the data were processed

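Peak lists of ChIP-seq for H3K9me3 and Trim28 and of ChIPmentation for Uhrf1 were used from 3 lines. Per the study's methods, reads were aligned to mm9 with BWA, duplicate reads were taken out with GATK, and MACS2 was run at its default settings; the lists are in its broad-peak format. The deposited columns used were the fold enrichment (a ratio over local background) and the −log10 q-value that the authors deposited for each peak. The deposited pooled lists were merged at the level of reads, and peak names in the pooled H3K9me3 and Trim28 lists give more libraries than those of the single lists, so the 2 kinds may have been called differently. The lists hold no read counts, so depth is unknown and no interval for a peak was computed. The single lists held 25953 to 63579 peaks for H3K9me3, 11440 to 49156 for Uhrf1 and 15995 to 31921 for Trim28. The hairpin bisulfite table was not used.

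DMR positions came from the supplementary table of DMRs after filtering, read as BED positions and printed from 1, and their methylation values were not used. Genes, exons and coding sequence came from GENCODE vM1, and sequence from NCBIM37 (mm9). A peak counted from 1 bp of overlap (Python 3.11.15, NumPy 2.4.6, pysam 0.24.0). Overlap, site search and the sign-flip test were tested on simulated data and against bedtools 2.31.1. Lines were compared by a two-sided exact permutation of the 2 single lists of each line, and genic with other DMRs, DMRs with the rest of gene bodies, and gene starts by a two-sided exact sign-flip permutation over 6 lists, with Benjamini-Hochberg adjustment. Orientation is given as counts with 95% Wilson intervals, which cover counting error only. Named DMRs were those with most coding bases, genes with several DMRs, DMRs with a peak in all or no list, DMRs that changed between lines, DMRs over gene starts, the largest DMRs and members of 11 gene lists, each up to a fixed number. Splits by IAPEz words and by CpG number, and the crossed pairing, were added after seeing the data. The DMRs, lists and tests were chosen with earlier results of these data known. Same-numbered lists pair by number only: the correlation of their deviations over the 284 DMRs was -0.214 to 0.584 over pairs of lines.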

Additional observations from a re-analysis of the deposited data

How the results depend on the processing

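Values are percentage points. With the replicate block the differences between lines kept their values, because the mean over same-numbered pairs equals the difference of means, for example 30.99 for Uhrf1 in WT against TKOL. For Uhrf1 in WT and TKOL same-numbered lists deviated oppositely (r = -0.173), and a crossed pairing also gave 30.99 and changed no call. The cause of the changes below was not tested.

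With the same number of peaks per list, H3K9me3 in WT against TKOL was 2.64 and Uhrf1 in DKO0 against TKOL 2.46. The latter was 0 at 50% overlap and 0.704 with a −log10 q of at least 5. Leaving out each list in turn gave -3.35 to 16.0 for H3K9me3 in DKO0 against TKOL, -14.4 to 4.93 for H3K9me3 in WT against TKOL, and -9.15 to 0.352 for Uhrf1 in DKO0 against TKOL.

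For genic minus other DMRs, 50% overlap gave -0.338 for Uhrf1 and -1.20 for Trim28, and a −log10 q of at least 5 gave -0.224 for Uhrf1. Only DMRs with IAPEz words gave 0.629 for H3K9me3, 1.18 for Uhrf1 and 2.35 for Trim28, only those without gave -2.36, 0.0386 and -1.86, and only those with more than 20 CpGs gave -0.559, -1.72 and -1.47. Near gene starts, 5 kb to each side gave 5.15 for H3K9me3, 1.75 for Uhrf1 and 1.56 for Trim28. Genes whose DMR reaches this wider window were not left out there. Without genes whose DMR reaches the window of 1 kb H3K9me3 gave -0.541. In that window a −log10 q of at least 5 gave -0.129 for Uhrf1 and -0.171 for Trim28. Leaving out replicate 2 or 1 of each line gave -0.908 to 0.0121 for Trim28, and 0.0272 without TKOL replicate 1 alone. The peak lists hold no reads, so sequencing depth could not be taken into account.

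With the mean of each line, the values stayed at -5.96, -3.30 and -5.28 for genic minus other DMRs and at 17.6, 5.26 and 6.79 for covered bases, for H3K9me3, Uhrf1 and Trim28. Their exact sign-flip permutation p was then 0.25, the smallest that 3 values can give, so this design cannot pass the threshold. Leaving out single lists, added after seeing the data, kept the sign of these 6 results, with 5 lists giving an exact permutation p of 0.0625 at least.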
